A study of Drosophila melanogaster with 2 samples.

Results

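The 9 genes described are ato, amos, cato, sens, neur, phyl, chn, cpo and ct, which act in the selection and development of sensory organ precursors, the single cells from which each external bristle or stretch receptor of the fly arises. They were taken by name as atonal-type proneural genes and as known precursor targets of proneural proteins paired with Daughterless, the protein precipitated here. Binding of Daughterless at such targets was therefore anticipated by the choice of the set. The members are 9 of 13945 protein-coding genes of the annotation. For each gene, all regions of the deposited lists with a summit in the gene span or within 5000 bp of it were used. These came to 10 regions or 0.515% of the thresholded list, 0.337% of the 30000 regions of the pooled relaxed list (86 at the genes with a thresholded region and 15 at the others), 112 of 30000 in replicate 2 and 100 of 30000 in replicate 3. The windows ran from 10712 bp at cato to 109061 bp at cpo, so the share of genes is no measure of the sequence they cover. The thresholded regions were those of highest pooled signal, and a relaxed list holds background beside peaks. The name of the set cannot be checked in these data, because the lists hold no expression values and the whole embryo was sampled.

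The chromatin came from a transgenic Drosophila melanogaster line, strain da-GFP, which stably expresses daughterless (da) fused to GFP at its C terminus, and was precipitated with an antibody against GFP. The embryos, pooled male and female, covered 0 to 24 h of development in 1 group of 2 biological replicates, which carry the numbers 2 and 3, with no other condition. Precursors of the adult bristles, which form in imaginal tissue after embryogenesis, were therefore not sampled. The labels do not say which promoter drives the transgene. In whole embryos, strong binding in few cells and weak binding in many cannot be told apart.

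Sensory organ precursors are chosen from groups of equivalent ectodermal cells. Proneural proteins of the basic helix-loop-helix (bHLH) family give the whole group the ability to become neural, and lateral inhibition through Notch restricts that fate to a single cell. These proteins bind DNA as dimers with Daughterless, at a hexamer called the E-box, CANNTG. The achaete-scute type leads mainly to external bristles, and the atonal type to chordotonal organs, photoreceptors and many olfactory sensilla.

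Windows of 50 bp on either side of 6 pooled summits are shown, for the strongest regions of neur, cpo and ct and, beside them, the highest region of ato and the region just upstream of sens, which were weak. Letters are the plus strand of the RefSeq Release 6 assembly (dm6), 5′ to 3′, and capitals mark every CANNTG.
neur, intron, chr3R:9025004-9025104: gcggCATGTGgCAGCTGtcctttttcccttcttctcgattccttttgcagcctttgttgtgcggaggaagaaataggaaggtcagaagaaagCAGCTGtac
cpo, upstream of the gene, chr3R:17919178-17919278: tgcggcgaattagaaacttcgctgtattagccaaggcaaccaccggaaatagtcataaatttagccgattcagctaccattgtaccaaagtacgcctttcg
cpo, intron, chr3R:17941262-17941362: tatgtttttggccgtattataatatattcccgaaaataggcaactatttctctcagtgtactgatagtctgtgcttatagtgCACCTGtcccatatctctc
ct, upstream of the gene, chrX:7604551-7604651: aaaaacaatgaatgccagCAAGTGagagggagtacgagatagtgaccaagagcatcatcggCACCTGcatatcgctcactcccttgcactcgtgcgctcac
ato, upstream of the gene, chr3R:8276794-8276894: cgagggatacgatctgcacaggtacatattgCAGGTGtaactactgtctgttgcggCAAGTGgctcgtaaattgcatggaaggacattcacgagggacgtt
sens, upstream of the gene, chr3L:13401540-13401640: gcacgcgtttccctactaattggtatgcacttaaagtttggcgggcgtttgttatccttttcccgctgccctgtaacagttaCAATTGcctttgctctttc
The strongest region of neur held 3 E-boxes and that of cpo none, while the weak region of ato held 2. Those of neur began 46 and 39 bp before the summit and 42 bp after it, toward the edges of the window.

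Thresholded regions lay at the 5 longest of the 9 genes, and none lay at the 4 shortest, the atonal-type proneural genes and sens. Of the 9 genes, 5 (neur, phyl, chn, cpo and ct) had at least 1 thresholded summit within 5000 bp, where 28.4% of all protein-coding genes did. A longer gene offers more room for a summit, and the 9 genes differ from 712 bp (cato) to 99061 bp (cpo). All 3 members with a span of 5000 bp or more but under 50000 bp had a thresholded summit, where 38.2% of genes of that span did, and so did both members of 50000 bp or more, where 48.9% did. The 4 members under 5000 bp (ato, amos, cato and sens) had none, where 24.8% of genes of that span had one. Pooled regions with a q of 0.01 or less were at the same 5 genes, where 42.3% of all protein-coding genes had one (37.6% of the short, 56.0% of the middle and 61.2% of the long class). The class limit of 5000 bp falls between sens (4898 bp) and phyl (5002 bp), so a slightly different limit would move sens or phyl to the other class. With 2 to 4 members in a span class, these counts are a description.

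**Figure D1:**
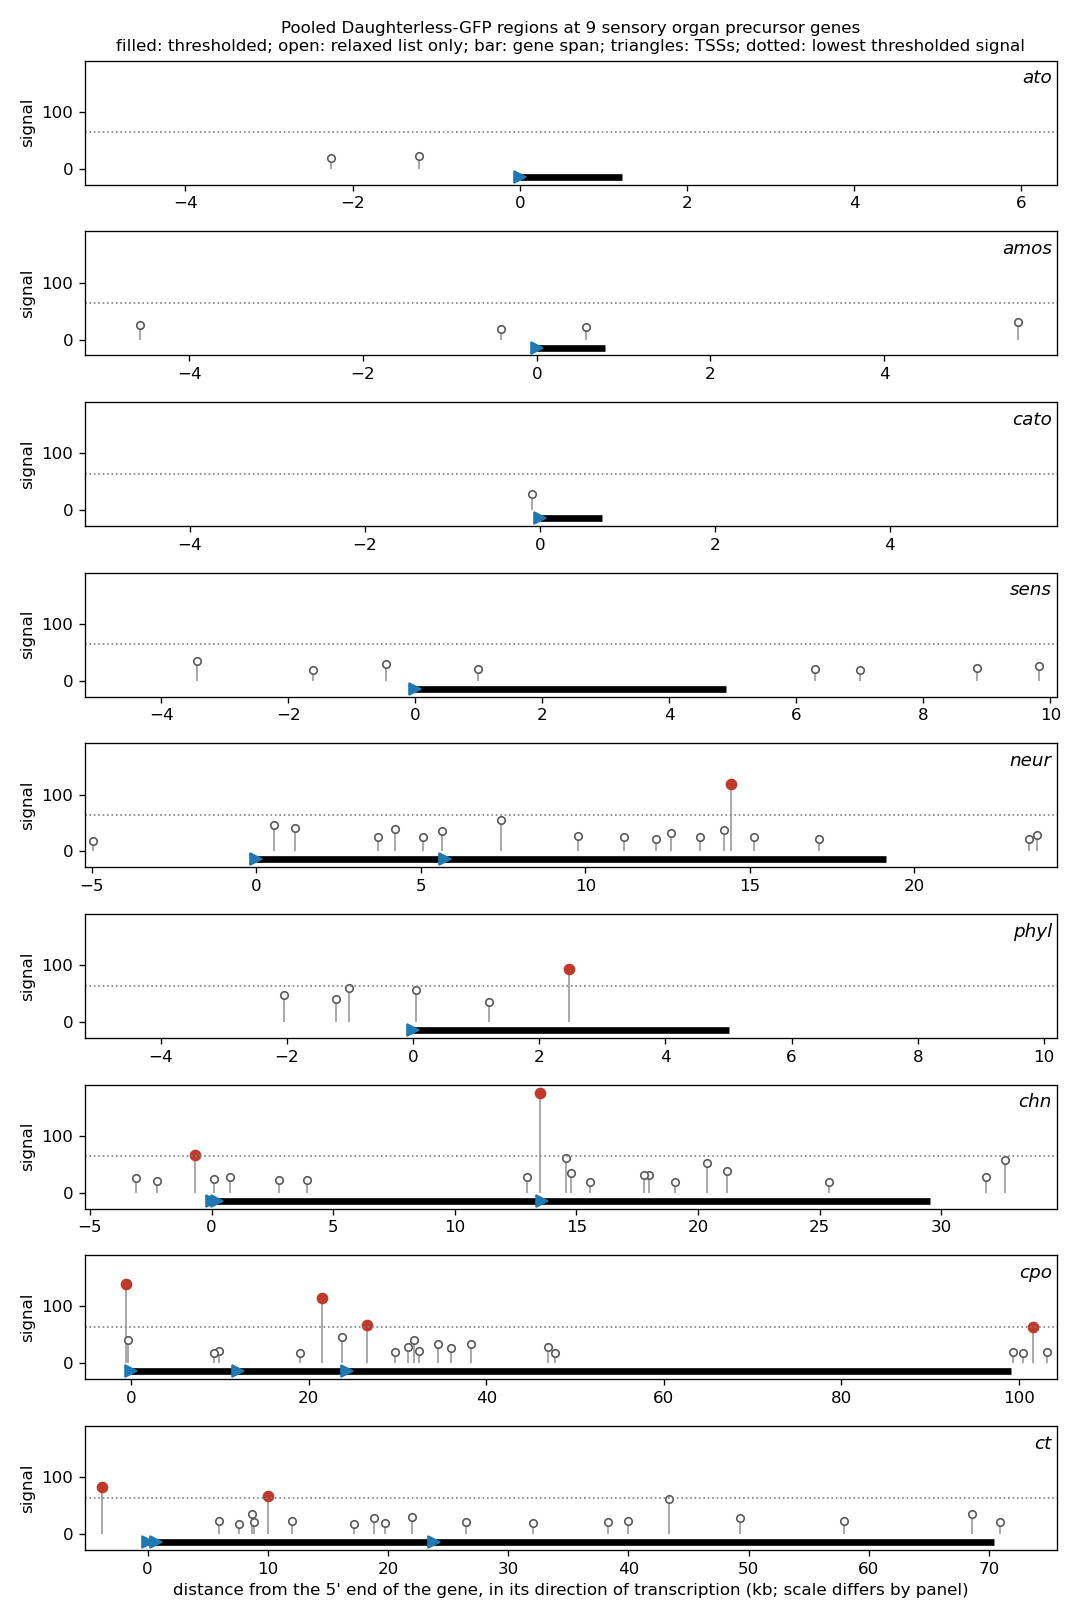
Each panel plots the pooled signal of every relaxed-list region (vertical axis, authors' units) against its distance in kb from the 5′ end of the gene, with the gene span as a black bar and its transcription start sites as triangles. Filled points are the 10 thresholded regions, which lie at neur, phyl, chn, cpo and ct, and the panels of ato, amos, cato and sens hold open points only, none above a signal of 34.0.

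The signal of a region is the strength that the authors' caller gave it, from a replicate or the pool and a control, and it serves to describe and rank regions within a list. Thresholded signals ran from 64.2 to 877 with a median of 88.15, and those of the 10 regions at the members had a median of 87.7, with 5 of them above the list's median. Pooled signals are on another scale than the values of single replicates. Over the 1928 thresholded regions found in both replicates, the log2 ratio of replicate 3 to replicate 2 had a median of 0.18 and an SD of 0.59. This SD serves as a rough scale for signals of single regions. It does not measure the spread of pooled values, of the highest value in a window or of regions below the threshold. The lists hold no read counts, so depth is unknown. Of the 30000 regions of each replicate, a q of 0.01 or less was given to 3568 in replicate 2 and to 2964 in replicate 3.

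Among the atonal-type proneural genes, no region stood out in any list. The gene ato (FBgn0010433, 3R 8278052 to 8279274, plus strand), which specifies chordotonal organs and the founder photoreceptor of the eye, had 2 pooled regions within 5000 bp. The higher was 1208 bp upstream, with a pooled signal of 22.7 at rank 19305 of 30000 and 11.96 in replicate 2, and had no summit within 200 bp in replicate 3. The highest region of ato in replicate 3 (17.0, rank 12293) was at another place, 3806 bp upstream.

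The gene amos (FBgn0003270, 2L 18596136 to 18596921, minus strand), the proneural gene of many olfactory sensilla, had 4 pooled regions. Its highest (31.3, rank 9242; 13.3 and 16.2 in replicates 2 and 3) lay 4753 bp from its span in an intron of CG15160. A region in the coding exon of amos itself reached 22.4 and was found in replicate 3 (16.2) without a match in replicate 2. The gene cato (FBgn0024249, 2R 16277685 to 16278396, minus strand), which encodes a related bHLH protein made in precursors and differentiating sensory neurons, had a single pooled region. Its summit was 89 bp upstream of the transcription start site (TSS), with a pooled signal of 27.9 at rank 12123, and 18.5 in replicate 2. Within 5000 bp of cato, replicate 3 had no region at all.

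The zinc finger gene sens (FBgn0002573, 3L 13396228 to 13401125, minus strand), which sustains proneural gene expression in the chosen precursor, had 8 pooled regions and none in the thresholded list. The highest was 3443 bp upstream (34.0, rank 7657; 13.4 in replicate 2 and 16.0 in replicate 3). The next was 465 bp upstream of the TSS (29.9, rank 10345) and was found in replicate 3 (18.9) but not in replicate 2. Of the 15 pooled regions at ato, amos, cato and sens, 4 had a summit within 200 bp in both replicates, where 41.8% of all pooled regions did. The highest −log10 q among the 15 was 0.771, against a ceiling of 3.54 in the pooled list. All 9 members had a pooled region, as did 88.9% of all protein-coding genes (86.5%, 96.4% and 93.5% from the short to the long class). A pooled region found in both replicates was at 7 of the 9, all but ato and cato, where 73.1% of all genes had one (68.8% of the short, 86.0% of the middle and 86.0% of the long class).

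The gene chn had the highest region of the set. It encodes Charlatan, a zinc finger protein that promotes expression of the achaete-scute genes in precursors, and spans 2R 15115236 to 15144783 on the plus strand (FBgn0015371). The region had its summit at 15128725, in an intron for the longer transcripts and within 500 bp upstream of an internal TSS of chn, with a pooled signal of 175 at rank 188. Its signal was 98.0 in replicate 2 (rank 124) and 77.5 in replicate 3 (rank 306), high in both. The window of 50 bp on either side held no E-box. A second thresholded region, 679 bp upstream of the gene, had a pooled signal of 65.8 (rank 1841), with 21.8 in replicate 2 and 43.4 in replicate 3. It ranked higher in replicate 3 (1229) than in replicate 2 (4635), and its log2 ratio of 0.99 was the largest among the 10 regions. At least 2 thresholded summits, as at chn, were found at 11.1% of genes of its span class.

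A further 3 pooled regions of chn had a q of 0.01 or less. They were 968 bp downstream of the internal TSS (61.9), in an intron 6761 bp downstream of it (51.8), and 3055 bp beyond the end of the gene (57.5). The last was 14 bp upstream of the TSS of CG8089, and lay at rank 1364 in replicate 3 and rank 7345 in replicate 2.

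The gene neur, which encodes the ubiquitin ligase Neuralized that promotes endocytosis of Delta and so signalling from the precursor to its neighbours, had 1 strong region far from its promoters. It spans 3R 9020348 to 9039471 on the minus strand (FBgn0002932). The summit was at 9025054, in an intron and 8677 bp downstream of its nearer TSS, and the nearest TSS of any gene was that of tgo at 5032 bp. The pooled signal was 118 (rank 480), with 62.8 in replicate 2 (rank 401) and 54.0 in replicate 3 (rank 739). The replicates' own summits were within 33 bp of the pooled summit.

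The neur window held CAGCTG at 3R 9025015 to 9025020 and again at 9025096 to 9025101, on either side of the summit, and CACATG at 9025008 to 9025013. CAGCTG, read on both strands as all motifs here, was in 10.5% of all thresholded windows, and 21 of them (1.08%) held it at least 2 times. Windows with 3 or more E-boxes numbered 44 (2.27%), and 2 of these 44 were at the members. The second region of neur (54.6, rank 2716; 22.0 and 33.0 in the replicates) was in an intron 1687 bp downstream of a TSS of neur and had no E-box. The third (45.9, rank 3941; 23.8 and 21.4) was 546 bp downstream of the first TSS of neur and 165 bp from a TSS of hyx, and held CAGCTG and CACATG.

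Pooled regions were dense at neur, with 19 in the window of 29124 bp, or 6.52 per 10 kb. The middle 50% of protein-coding genes of the middle span class had 1.78 to 4.46 per 10 kb, with a median of 3.07. The density was 5.06 at chn, and phyl had 6 regions in 15002 bp. Over the short genes it was 5.37 at sens, 3.71 at amos, 1.78 at ato and 0.934 at cato, beside 1.37 to 4.84 for the middle 50% of genes of that span. The densities of neur, chn and sens lay above that range in their class, and those of cpo (1.93) and ct (2.49) lay within the 0.666 to 2.83 of the long class. In replicates 2 and 3 the density was 7.90 and 5.15 per 10 kb at neur, 4.30 and 4.80 at chn, and 4.70 and 3.36 at sens. Set beside the same pooled ranges, neur was above in both replicates, chn in replicate 3 alone and sens in neither. Of the genes not above in the pooled list, phyl (5.33 and 6.67) was above in both replicates. The density of amos (3.71 and 6.49) was above in replicate 3 alone.

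At phyl, regions lay on both sides of the promoter. This gene (FBgn0013725, 2R 14427336 to 14432337, minus strand) encodes Phyllopod, an adaptor that brings the repressor Tramtrack to the ubiquitin ligase Sina and so permits sense organ fates. Its thresholded region was in an intron 2464 bp downstream of the TSS, with a pooled signal of 92.8 (rank 859), 40.8 in replicate 2 (rank 1109) and 55.3 in replicate 3 (rank 687). CAGATG began 1 bp before that summit, a form present in 6.18% of all thresholded windows. All 6 pooled regions of phyl were found in both replicates, and 4 of the 6 had a q of 0.01 or less, where 41.8% of all pooled regions were found in both and 12.01% had such a q.

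The other 3 of these 4 were below the lowest thresholded signal of 64.2. A region 1016 bp upstream of the TSS had a pooled signal of 60.6 (22.7 and 36.0 in the replicates) and held CAGCTG. The region at the start of transcription, 48 bp into the 5′ untranslated region, had 56.4 (32.6 and 32.0). A region 2052 bp upstream, nearer to a TSS of L, had 48.0 and was unequal, with 9.69 in replicate 2 and 37.9 in replicate 3. Of as many of its own highest regions as the thresholded list holds, replicate 2 had 3 at phyl and replicate 3 had 4.

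The RNA-binding protein gene cpo, whose transcripts appear in precursors and their daughter cells, had the most thresholded regions. It spans 99061 bp (FBgn0263995, 3R 17919832 to 18018892, plus strand), and 4 thresholded summits lay in it or within 5000 bp, a number reached by 6.51% of the 307 genes of 50000 bp or more. The strongest was 604 bp upstream of the gene (pooled signal 139.5, rank 323; 64.7 in replicate 2 and 73.8 in replicate 3). The second was in an intron 2794 bp upstream of an internal TSS (114, rank 520; 59.3 and 53.5). Both were high in each replicate, at rank 757 or better.

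The other 2 regions of cpo ranked lower in replicate 2 than in replicate 3, with a q of 0.01 or less in replicate 2 as well. That in an intron 2289 bp downstream of the internal TSS had a pooled signal of 67.8 (27.8 in replicate 2, rank 2678, and 38.7 in replicate 3, rank 1593). That 2571 bp beyond the end of cpo, at 137 bp upstream of the TSS of CG7785, had 64.5 (25.5, rank 3258, and 42.6, rank 1284), just above the lowest thresholded signal. A weaker summit of replicate 2 (10.1, rank 26191) was also within 200 bp, and the nearer was used. The window of the pooled summit had a GC content of 21.8% and held CAAATG on either side of a CAATTG. The intronic window at 17941312 held CACCTG, read as CAGGTG on the other strand and with the flanking base as ACAGGTG, which was in 1.55% of all thresholded windows.

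The homeodomain gene ct, which gives external sense organs their identity, had 2 thresholded regions of moderate height. It lies at X 7608428 to 7678859 on the plus strand (FBgn0004198). The higher summit was 3827 bp upstream of the gene (82.6, rank 1115), with 32.0 in replicate 2 (rank 1950) and 47.9 in replicate 3 (rank 981), so that it fell just short of a number of highest regions of replicate 2 equal to the thresholded list. Its window held CAAGTG 32 bp before the summit and CACCTG 11 bp after it, here as GCAGGTG on the other strand, which was in 1.65% of thresholded windows. The second was in an intron 9260 bp downstream of the nearest TSS (67.6, rank 1728; 30.9 and 35.9 in the replicates) and had no E-box. At least 2 thresholded summits were found at 22.8% of genes of the long class. An intronic region at 7651821, 19599 bp from the nearest TSS, was just under the threshold (61.5, rank 2128) and differed between replicates, with 19.2 in replicate 2 and 39.2 in replicate 3.

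**Figure D2:**
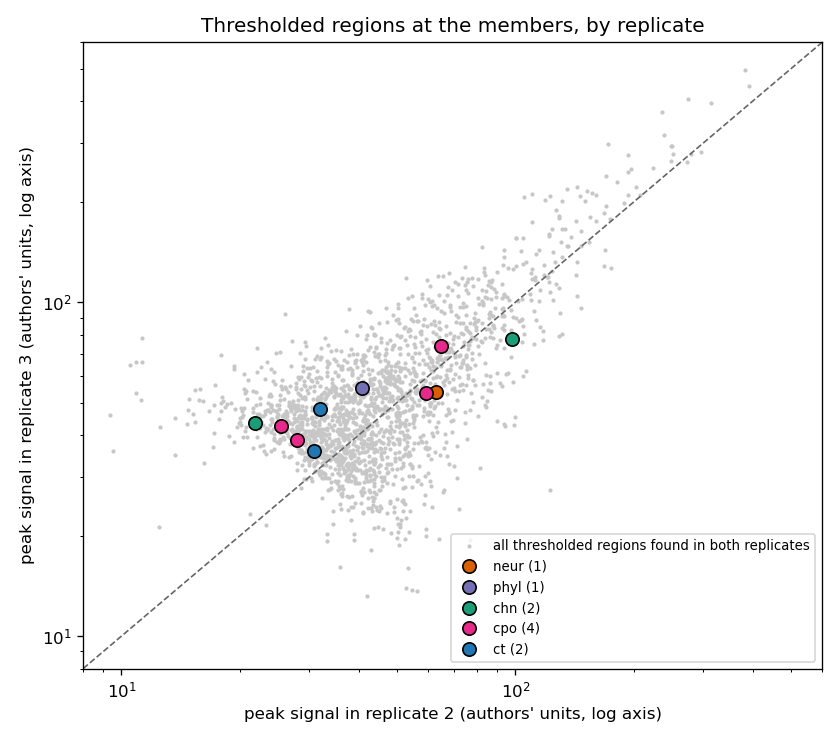
Peak signal in replicate 3 against replicate 2, both on log axes and in the authors' units, with each of the 10 thresholded regions at the members as a coloured point over all thresholded regions found in both replicates (grey) and a dashed line of equal signal. The 5 strongest (at chn, cpo, neur and phyl) have 40.8 or more in replicate 2, and the other 5 have 21.8 to 32.0 there and lie above the line.

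Replicates gave different support to the 10 regions. When as many of the highest regions of each replicate were taken as the thresholded list holds, all 10 were among those of replicate 3 and 5 among those of replicate 2, so 5 were among the highest of both. Those 5 were at chn, neur, phyl and cpo, and 4 of the 9 genes therefore had a summit among the highest of both replicates, where 19.8% of all protein-coding genes did. By span, these were 0 of 4 short genes (17.0% of their class), 3 of 3 of the middle class (27.4%) and 1 of 2 long genes (34.9%). Replicate 3 gave the higher value at 7 of the 10, with log2 ratios from -0.34 to 0.99. The median over all thresholded regions found in both replicates was 0.18, also toward replicate 3.

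The order of the highest regions was chn, cpo, neur, phyl, ct, sens, amos, cato and ato. From chn to ct each neighbour was within 0.35 of the next on the log2 scale of the pooled list, less than the SD of 0.59 between replicates. In replicate 2 the steps from chn to cpo (0.60) and from neur to phyl (0.62) slightly exceeded it, and in replicate 3 phyl was above neur. By the highest region in each list, the step from ct (82.6) to sens (34.0) was 1.28 in the pooled list. It was 1.26 in replicate 2 and 1.29 in replicate 3, larger than that spread in all 3 lists. Each value is the highest of a window, 80432 bp long at ct and 14898 bp at sens. The step falls between the longer and the shorter members, and the part of window length in it was not tested. From sens to ato no pooled step exceeded 0.30, and in replicate 2 amos (15.6) was above sens (13.4) and cato (18.5) above amos. The highest region of a replicate was not always the pooled one described above. That of amos in replicate 2 was at another place, as were those of sens (19.6) and amos (19.4) in replicate 3.

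**Figure D3:**
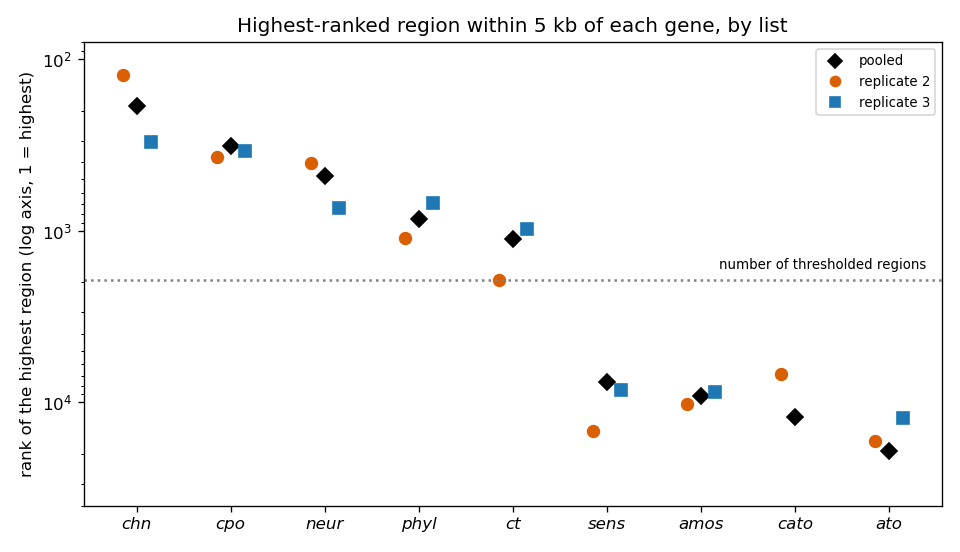
Rank of the highest region within 5000 bp of each gene (log axis, rank 1 at the top) in the pooled list (diamonds), replicate 2 (circles) and replicate 3 (squares), with a dotted line at the length of the thresholded list. The genes chn, cpo, neur and phyl are above the line in all 3 lists, ct is at rank 1950 in replicate 2, and sens, amos, cato and ato lie far below it.

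Thresholded regions of the members were mostly away from promoters. Of the 10 summits, 8 were over 500 bp from the nearest protein-coding TSS, where 44.9% of the whole list were, and the other 2 were those at the internal TSS of chn and near CG7785. Introns of the member itself held 6, where 42.7% of the whole list were in introns, and the remaining 4 were between genes. For 8 of the 10, the nearest TSS was the member's own, the exceptions being the neur region (nearest to tgo) and the last of cpo. Distance does not show on which gene a region acts.

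E-boxes were present at 6 of the 10 summits (within 50 bp), where 42.6% of all thresholded windows and 43.9% of those over 500 bp from a TSS had one. Over all pooled regions of the members, 58 windows (57.4%) had an E-box, beside 45.3% of the 30000. No form stood for the set. Among the 10, CACCTG was in 2 windows and CAAGTG in 2, and no other form was in more than 1. Over all pooled regions of the members, CACCTG was in 9.90% (5.81% of all pooled windows), CACATG in 8.91% (5.64%), CAGATG in 7.92% (5.69%) and CAGCTG in 8.91% (7.97%). The commonest form was CAAATG, in 12.9% (9.58%), and CAAGTG was in 7.92% (6.93%). CATATG was in 5.94% (3.10%) and CAATTG in 5.94% (3.85%). The forms less frequent at the members were CAACTG, in 3.96% (7.17%), and CACGTG, in 0.990% (1.497%). Of motifs for other factors, GAGAG, bound by Trithorax-like, was in 2 of the 10 windows (13.1% of all thresholded), and CAGGTAG (0.618%), bound by Zelda, and TATCGATA (2.52%), bound by DREF, were in none. A match of letters is a description of the window, and no match says only that these letters were not in it.

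The position of the limit at 5000 bp mattered for ato and amos. The nearest thresholded region outside the limit was 8153 bp from amos, at CG10413 and with a pooled signal of 240.4 (rank 81), and 8187 bp from ato, nearest to CG9630 (67.6, rank 1729). Just inside the limit, the farthest pooled regions were at 4958 bp for neur (18.7), 4930 bp for sens (26.7) and 4753 bp for amos (31.3). Just outside, they were at 5014 bp for ct (20.6) and 5512 bp for amos (29.0).

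Other genes of sense organ development were read in the same way, from a list chosen by role with earlier results known. Of 38 genes listed, 36 were found by symbol, and Dl (lateral inhibition) and h (an inhibitor) were left out. Of the 36, 14 (38.9%) had a thresholded summit within 5000 bp, where 28.4% of all protein-coding genes did. Genes for precursor selection and recruitment, all of the middle span class, had one in 4 of 5 cases. Genes for precursor division and daughter fates, of mixed span, had one in 5 of 7. The partner gene da had one (1 of 1), as did 2 of 5 genes of lateral inhibition. None of the 4 proneural or precursor bHLH genes ac, sc, l(1)sc and ase had one, and neither did emc, an inhibitor of bHLH dimers. These genes are all under 5000 bp, and their highest pooled signals were 32.3, 23.6, 21.3, 46.8 and 55.9. Of genes for sense organ or neuron type, 1 of 7 did (kn), and of genes for ciliated sensory neurons 1 of 6 (nompC). Gene span differs between these groups. Of the 13 listed genes under 5000 bp, 1 had a thresholded summit, where 24.8% of all genes of that span did. The middle class had 12 of 21 (38.2% of all genes of that span) and the long class 1 of 2 (48.9%). The part of span in the total and in the counts by role was not tested.

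Among them, spi, which encodes an EGF receptor ligand, had the highest region (pooled 203; 83.9 in replicate 2 and 121 in replicate 3). It was followed by insc, an adaptor for oriented precursor division (178; 68.9 and 109), and nvy, a transcriptional co-regulator (163; 80.2 and 88.6). The mechanosensory channel gene nompC had 129 (53.4 and 70.2), with its summit nearest to a TSS of Acsf2. The paralogue sens-2 had 109 (51.7 and 57.6), nearest to Rca1, and edl, a regulator of ETS-domain transcription factors, had 108 (59.6 and 46.2). The receptor gene N had 104 (51.2 and 53.9), nearest to CG18508, and numb, which sets daughter fates, had 100.7 (32.0 and 67.6). For 5 of the 14 genes the best summit was nearest to a TSS of another gene. The line carries a tagged da transgene, and its part in the signal at da (97.2; 39.9 and 55.2 in the replicates) was not tested.

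**Figure D4:**
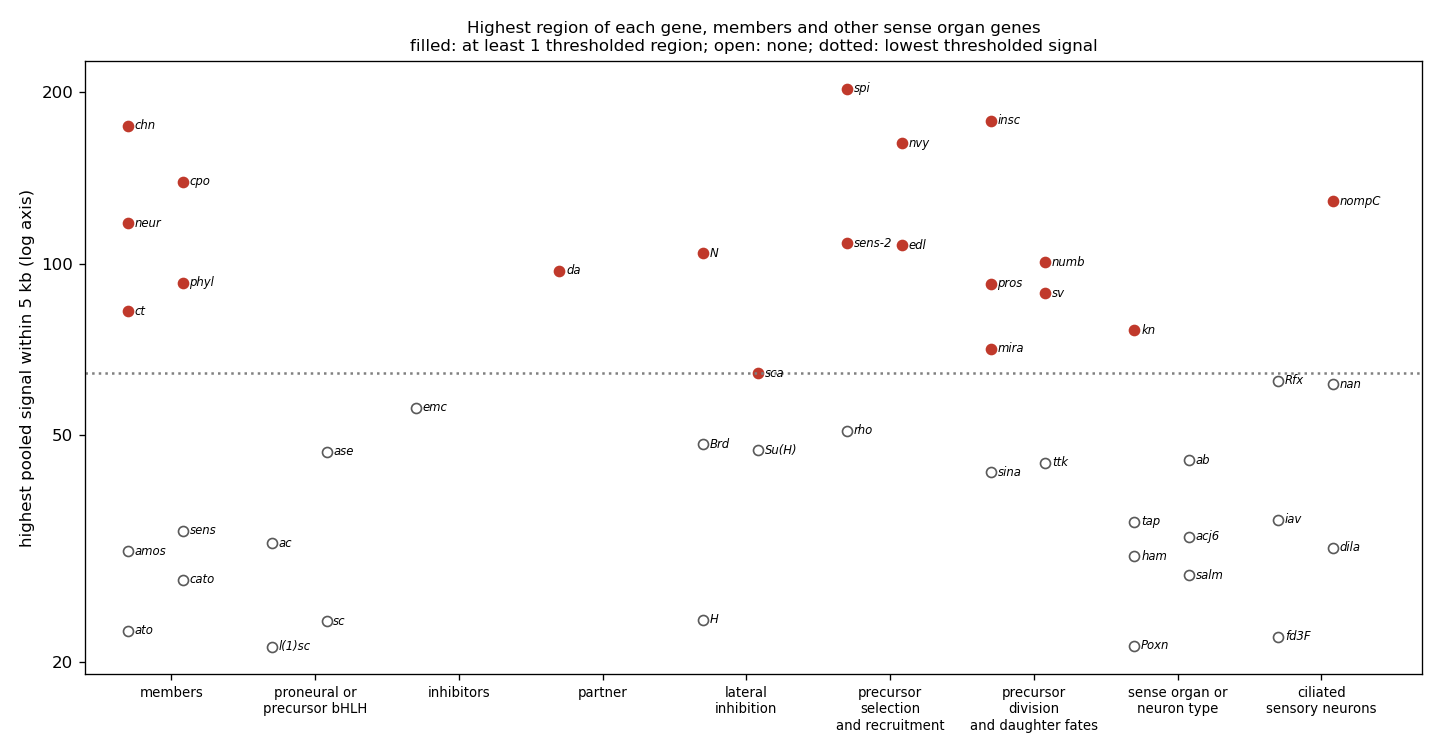
Highest pooled signal within 5000 bp (log axis, authors' units) of the 9 members and of 36 other genes of sense organ development by role, where filled points have at least 1 thresholded region and the dotted line marks the lowest thresholded signal. The proneural genes of both types lie below the line, with ato at 22.7 and ac at 32.3, and spi, insc and chn are highest.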

How the data were processed

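Chromatin immunoprecipitation and sequencing was done in 2 biological replicates of da-GFP embryos, with chromatin sheared to 200 to 800 bp, per the labels. The authors deposited narrowPeak lists in which each region has a signal (the strength of the region, from alignments of the sample and a control) and a −log10 q value. Relaxed lists of 30000 regions were made from each replicate and from the pooled reads of both, and the list of 1941 regions passed a filter on irreproducible discovery rate, per the notes deposited with the samples. Which caller, aligner and cutoff made them is not given in the sources used here. All 1941 thresholded regions were the pooled regions of highest signal. Only the dm6 lists were used, since no dm3 annotation was given.

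Summits were assigned to genes of Ensembl release 115 (BDGP6) when in the span or within 5000 bp of it, and to annotation at the summit base. Summits within 200 bp were called the same region in 2 lists, and the nearest was taken where there were more. Sequence was read from the RefSeq Release 6 assembly, whose arms were longer than the last region end of each list. Motifs were searched on both strands in 101 bp centred on the summit. The members and gene lists were chosen with earlier results of these data known. No test between groups exists with 1 group. Counts were set beside the same count over all protein-coding genes, all thresholded regions or all pooled regions. All 9 members are named, with the gene of the nearest TSS where that is another gene, and the 8 other sense organ genes of highest signal with a thresholded region. The assignment and motif search were tested on simulated summits and windows. Python 3.11.15 and pandas 2.3.3 were used.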

Additional observations from a re-analysis of the deposited data

How the results depend on the processing

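The number of members with a thresholded region was 5 and lay between 4 and 7 under the alternatives run. It was 5 with a limit of 1000 bp, with the span alone and with any base of a region, 7 within 10000 bp (which adds ato and amos), 4 with the stronger part of the list, above its median signal (which drops ct), and 4 by the gene of the nearest TSS (which drops neur). From the highest regions of a single replicate it was 5 without replicate 2 and 4 without replicate 3. The 10 regions became 6 with the span alone, 5 above the median signal, and 8 to 16 without either replicate; the cause of the 16 was not tested. Regions with an E-box fell from 6 to 3 above the median signal, where fewer regions remain, and ranged from 4 to 7 without either replicate. They were 4 in a narrower window of 51 bp, which leaves out all E-boxes of the neur region, and 8 in a wider one. Members among the highest of both replicates were 4, and 5 within 10000 bp or with the 3000 highest regions of each. Of 33 recomputed highest signals of single genes, 27 were counted as the same and 6 as moved. Those 6 were at ato (67.6 within 10000 bp), amos (22.4 within 1000 bp and in the span, 240.4 within 10000 bp), cato (59.0 within 10000 bp) and sens (20.8 in the span). On the log2 scale, the fall at amos from 31.3 to 22.4 was less than the SD of 0.59 between replicates, so the limit for a move was below that SD. In 3 further settings a gene had no region. No paired analysis was possible because there was 1 group. Depth is unknown, so its effect on regions near the threshold could not be measured.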
